A study of Mus musculus with 11 samples.

Results

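Stmn1, Stmn2, Stmn3, Stmn4, Gap43, Dcx, Tubb3, Tubb2b, Map2 and Mapt are 10 genes of the neuronal microtubule cytoskeleton, measured here in neuroblastomas of Th-MYCN mice. They were chosen by gene name from the 24411 genes of the table, with their TPM in the 4 treatment groups already known, so their changes and test results below describe them and support no further statement. All 10 also passed the filter on low values (at least 1 TPM in at least 2 libraries), which left 15497 genes to test. Spontaneous tumours of homozygous Th-MYCN+/+ mice, in which the tyrosine hydroxylase promoter drives a MYCN transgene, were taken at about 5 mm, 16 h after 1 dose. Mice received vehicle intraperitoneally (n = 3), the curaxin CBL0137 intravenously at 40 mg/kg (n = 3), the histone deacetylase inhibitor panobinostat intraperitoneally at 5 mg/kg (n = 2, replicates 1 and 3) or both drugs (n = 3). Every group, vehicle included, carried the transgene, and no wild-type tissue was part of the comparison. Each library held the ribosome-depleted total RNA of 1 tumour, so host cells in the tumour were sequenced with the tumour cells.

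Microtubules are polymers of alpha- and beta-tubulin, and developing neurons use them to extend axons and dendrites. Stathmins bind free tubulin and promote the disassembly of microtubules, whereas doublecortin, MAP2 and tau bind and stabilise the polymer. Neuroblastoma arises from immature sympathetic neurons, and its cells carry many of these neuronal transcripts.

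Levels are in TPM, transcript abundances that take transcript length into account and sum to a fixed total in every library, so a level is a share of the sequenced RNA. In vehicle tumours Stmn1 stood highest with 923 ± 51.2 TPM (SD, n = 3), followed by Tubb3 with 836 ± 58.0 TPM and Tubb2b with 579 ± 50.6 TPM, and the libraries of these 3 genes did not overlap. Stmn2 with 250.4 ± 39.1 TPM and Stmn3 with 198 ± 14.0 TPM overlapped between libraries, as did Stmn4 with 136 ± 17.8 TPM and Gap43 with 131 ± 25.0 TPM. Map2 with 84.2 ± 10.3 TPM and Dcx with 63.4 ± 19.8 TPM overlapped too, and Mapt was the lowest with 6.67 ± 1.77 TPM.

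The 10 genes together took 3209 ± 151 TPM in vehicle (SD, n = 3), 2980.3 ± 407 TPM after CBL0137 (n = 3), 1664 ± 131 TPM after panobinostat (n = 2) and 729 ± 272 TPM after the combination (n = 3). As a share of the TPM total of a library that was 0.303 to 0.330% in the vehicle libraries, 0.253 to 0.333% after CBL0137, 0.157 to 0.176% after panobinostat and 0.0454 to 0.0998% after the combination. The vehicle and CBL0137 libraries overlapped, the panobinostat libraries lay below both, and the combination libraries were the lowest.

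**Figure D1:**
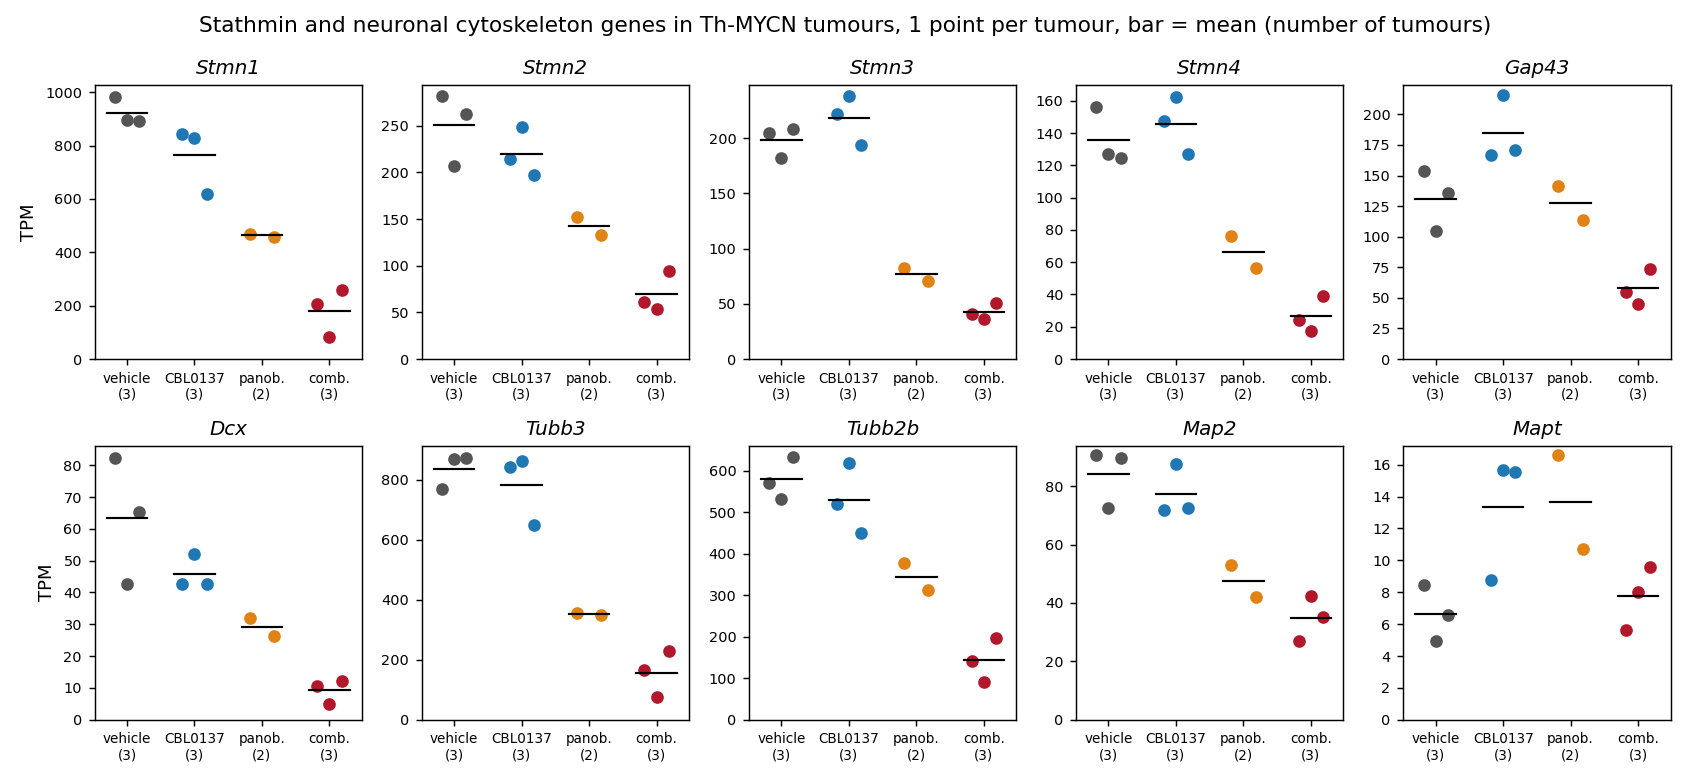
TPM of each of the 10 genes by treatment group (linear axes from 0), with 1 point per tumour and horizontal lines at group means. In 9 genes the combination mean is the lowest of the 4 groups, and Mapt is the exception, with its lowest mean, 6.67 TPM, in vehicle.

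Transcripts of other cell types moved with the treatments. Summed TPM of 13 macrophage markers ran from 890.1 to 1087 in vehicle, 1941 to 3921 after CBL0137, 4706 to 5937 after panobinostat and 7607 to 11589 after the combination. The 12 fibroblast and pericyte markers ran from 321 to 521, 723 to 1667, 3335 to 3957 and 4770 to 5804 TPM in the same order, whereas 14 proliferation markers ran from 2484 to 2819, 1295 to 2197, 1365 to 1394 and 301 to 816 TPM. The 13 noradrenergic neuroblast markers held 1295 to 1460 TPM in vehicle, 1823 to 2268 after CBL0137, 1113 to 1310 after panobinostat and 802 to 1729 after the combination, and none of the 13 was at 0 in all libraries of a group. Single noradrenergic markers went both ways after the combination, with 6 of the 13 falling and 2 rising. Among all tested genes 30.1% fell and 35.9% rose there. After CBL0137 2 of the 13 rose and 0 fell, beside 4.99% of all tested genes that rose and 1.13% that fell. Combination replicate 2 carried adrenal cortex transcripts (9 markers, 5489 TPM against 20.4 to 48.4 elsewhere) and panobinostat replicate 3 carried skeletal muscle transcripts (11 markers, 11728 TPM against 9.70 to 922). Kidney transcripts (11 markers) were highest in vehicle replicate 2, at 536 TPM against 23.7 to 308 in the other libraries. In these bulk samples fewer cells of a type and less RNA per cell cannot be told apart, and the part of host cells or other tissue in the changes below was not tested.

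**Figure D2:**
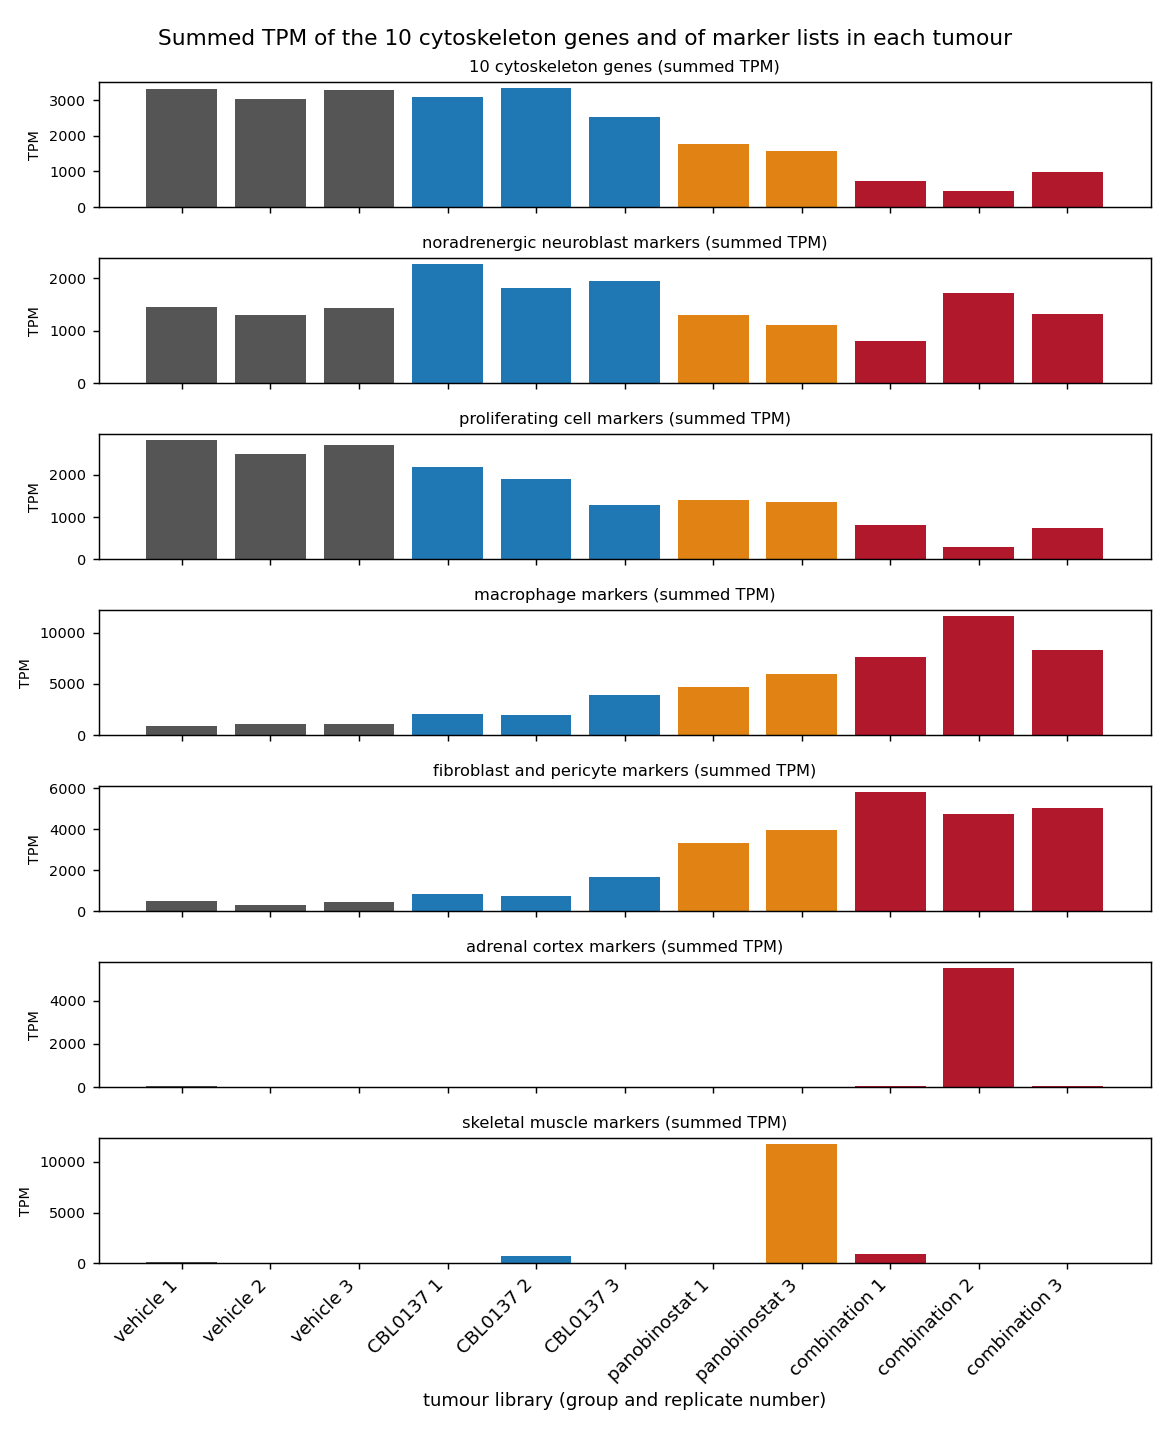
Summed TPM (linear axes from 0) of the 10 cytoskeleton genes and of marker lists for tumour, host and proliferating cells in each library, by group. Macrophage and fibroblast markers are highest in the combination libraries, while the 10 genes and the proliferation markers are lowest there.

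The stathmins come first. Stmn1, the cytosolic stathmin that dividing cells also use, had 982, 895 and 893 TPM in vehicle, 843, 829 and 618 TPM after CBL0137, 470.5 and 457 TPM after panobinostat, and 205, 81.7 and 257 TPM after the combination. No group overlapped another, and the group means had the same order as those of the summed genes. Against vehicle it fell by 2.49 ± 0.34 (SE) on the log2(TPM + 1) scale after the combination, to 19.7% of the vehicle mean. Panobinostat alone left it at 50.2% of the vehicle mean, a log2 difference of -0.99 ± 0.38 that did not pass limma's threshold (adjusted p = 0.0587). It passed without combination replicate 2 or 3 and on the compared groups alone (-0.99 in each), without both libraries with adrenal or muscle transcripts (-0.97) and with array weights (-0.95).

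Stmn2 (SCG10), a membrane-anchored stathmin of growing neurites, had 282, 207 and 262 TPM in vehicle, 214, 248 and 197 TPM after CBL0137, 152 and 133 TPM after panobinostat, and 61.2, 53.2 and 94.2 TPM after the combination. Vehicle and CBL0137 overlapped, while panobinostat and then the combination lay lower without overlap. It fell by 0.80 ± 0.23 after panobinostat and by 1.87 ± 0.20 after the combination (log2, SE), to 56.8 and 27.8% of the vehicle mean.

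Stmn3 (SCLIP), a related neuronal stathmin, had 205, 182 and 208 TPM in vehicle, 222, 238 and 194 TPM after CBL0137, 82.8 and 70.8 TPM after panobinostat, and 41.1, 36.1 and 50.7 TPM after the combination. The panobinostat libraries stood well below vehicle and above the combination. Its fall after panobinostat, 1.36 ± 0.15 on the log2 scale (38.7% of the vehicle mean), was the furthest of the 10 genes in that comparison, and after the combination it fell by 2.20 ± 0.13. Stmn4 (RB3), the remaining neuronal stathmin, had 156, 127 and 124 TPM in vehicle, 147, 163 and 127 TPM after CBL0137, 76.2 and 56.7 TPM after panobinostat, and 24.2, 17.7 and 39.0 TPM after the combination. Vehicle and CBL0137 overlapped in Stmn4 and the other groups did not. It fell by 1.03 ± 0.27 after panobinostat and by 2.36 ± 0.25 after the combination, to 19.8% of the vehicle mean.

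The make-up of the stathmin pool changed less than its size. Stmn1 provided 54.4 to 63.7% of the summed TPM of the 4 stathmins in 10 libraries and 43.3% in combination replicate 2, the library with adrenal cortex transcripts. Stmn3 stood at 0.725 to 0.882 times the level of Stmn2 in vehicle, 0.960 to 1.04 times after CBL0137, 0.534 to 0.545 times after panobinostat and 0.538 to 0.679 times after the combination. Within the pool, Stmn3 was thus high beside Stmn2 in the CBL0137 libraries and low in every library that had panobinostat.

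Both beta-tubulins followed the stathmins. Tubb3, the class III beta-tubulin used as a neuronal marker, had 769.6, 867 and 873 TPM in vehicle, 841, 861 and 647 TPM after CBL0137, 355 and 349.5 TPM after panobinostat, and 165, 75.0 and 228 TPM after the combination. CBL0137 overlapped vehicle and the other groups lay apart below. Tubb3 fell by 1.24 ± 0.36 after panobinostat and by 2.55 ± 0.32 after the combination (log2, SE), to 42.1 and 18.6% of the vehicle mean. Tubb2b, a beta-tubulin of developing neurons, had 571, 533 and 633 TPM in vehicle, 521, 619 and 449 TPM after CBL0137, 377 and 313 TPM after panobinostat, and 141, 89.9 and 198 TPM after the combination. Vehicle and CBL0137 overlapped again and the other groups did not. It fell by 0.75 ± 0.27 after panobinostat (adjusted p = 0.0485 by limma) and by 2.08 ± 0.24 after the combination. The call after panobinostat held in 2 of the 11 fits that left out 1 library, those without combination replicate 2 or 3, with log2 changes from -0.88 to -0.61 over all 11.

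Tubb2b and its near-identical neighbour Tubb2a can share reads, and how the authors' counting split them is uncertain. Tubb2a averaged 338 TPM in vehicle, 341 after CBL0137, 258 after panobinostat and 183 after the combination. The sum of both copies, which does not depend on the split between them, averaged 917, 870.1, 603 and 326 TPM. Tubb3 was 1.35 to 1.63 times as abundant as Tubb2b in vehicle and 1.39 to 1.61 times after CBL0137, against 0.941 to 1.12 times after panobinostat and 0.835 to 1.17 times after the combination.

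Gap43, a growth cone protein attached to the inner face of the membrane, behaved differently after a single drug. It had 154, 104 and 135 TPM in vehicle, 167, 216 and 171 TPM after CBL0137, 142 and 113 TPM after panobinostat, and 54.7, 45.4 and 73.9 TPM after the combination. The CBL0137 libraries all lay above vehicle, the panobinostat libraries lay within the vehicle range, and the combination libraries lay below all others. On the log2 scale the differences from vehicle were 0.50 ± 0.20 after CBL0137 (limma adjusted p = 0.163), -0.03 ± 0.22 after panobinostat (adjusted p = 0.926) and -1.17 ± 0.20 after the combination (adjusted p = 0.000508), where it fell to 44.2% of the vehicle mean. Scaled to the noradrenergic markers, the CBL0137 difference was -0.0202. Gap43 stood at 0.505 to 0.544 times the level of Stmn2 in vehicle and at 0.779 to 0.932 times in the 8 treated libraries, with no overlap.

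Dcx encodes doublecortin, a microtubule-binding protein of migrating young neurons. It had 82.3, 42.8 and 65.2 TPM in vehicle, 42.7, 52.3 and 42.7 TPM after CBL0137, 32.0 and 26.5 TPM after panobinostat, and 10.7, 5.02 and 12.2 TPM after the combination. Its vehicle libraries were the most spread of the 10 genes in TPM relative to their mean, and they overlapped those of CBL0137. Dcx fell by 1.05 ± 0.34 after panobinostat and by 2.68 ± 0.30 after the combination, to 14.6% of the vehicle mean, the lowest such share among the 10.

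Map2, a dendritic microtubule-associated protein, had 90.6, 72.3 and 89.7 TPM in vehicle, 71.9, 87.6 and 72.4 TPM after CBL0137, 53.1 and 42.2 TPM after panobinostat, and 26.8, 42.5 and 35.3 TPM after the combination. The libraries of panobinostat and the combination overlapped, since combination replicate 2 was the highest of its group in this gene. Map2 fell by 0.81 ± 0.19 after panobinostat and by 1.27 ± 0.17 after the combination, to 56.6 and 41.4% of the vehicle mean.

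Mapt, which encodes the axonal protein tau, went the other way. It had 8.47, 4.94 and 6.59 TPM in vehicle, 8.76, 15.7 and 15.6 TPM after CBL0137, 16.6 and 10.7 TPM after panobinostat, and 5.62, 8 and 9.61 TPM after the combination. Libraries of either single drug lay above vehicle, and those of the combination overlapped vehicle. It rose by 0.93 ± 0.32 after panobinostat (205% of the vehicle mean, limma adjusted p = 0.0381), while the log2 differences were 0.89 ± 0.28 after CBL0137 (adjusted p = 0.0937) and 0.19 ± 0.28 after the combination (adjusted p = 0.580). The ratio of Map2 to Mapt was 10.7 to 14.6 in vehicle, 4.65 to 8.21 after CBL0137, 3.20 to 3.94 after panobinostat and 3.67 to 5.31 after the combination.

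**Figure D3:**
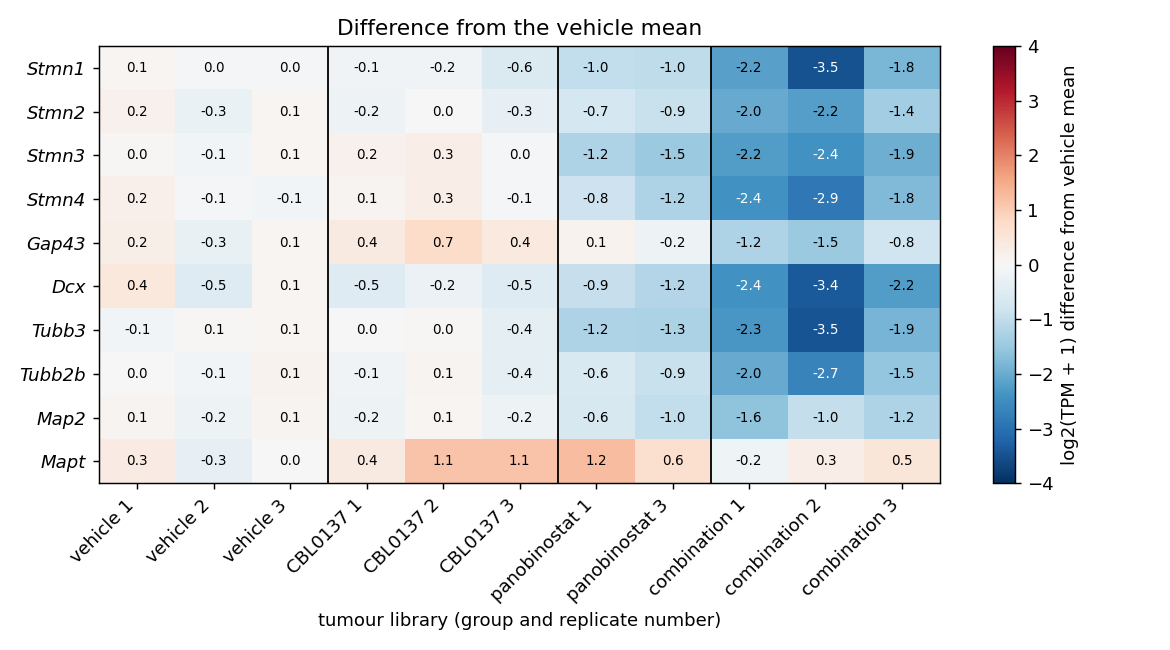
log2(TPM + 1) of each gene in each library minus the vehicle mean of that gene, printed in each cell. The combination cells are the lowest of their rows except in Map2, where replicate 2 is level with panobinostat replicate 3, and in Mapt, which is above the vehicle mean in every single-drug column.

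Promoters are shown for the 4 of the 10 genes that matched the RefSeq promoter table (GRCm38.p6), whatever their changes. The 250 bases before the annotated start are written 5′ to 3′ on the gene's strand. Capitals mark the GC box, searched as GGGCGG, the CCAAT box, the TATA box, searched as TATAAA, and the right arm of the RE1 element, searched as GGACAG, to which the neuronal gene repressor REST binds. Each motif was searched on both strands, so a match on the minus strand appears as its reverse complement, and no matches overlapped. Tubb3 lies at chr8:123411303-123411552 on the plus strand, Stmn3 at chr2:181314501-181314750 on the minus strand, Map2 at chr1:66175079-66175328 on the plus strand and the second Dcx start at chrX:143933220-143933469 on the minus strand.
Tubb3: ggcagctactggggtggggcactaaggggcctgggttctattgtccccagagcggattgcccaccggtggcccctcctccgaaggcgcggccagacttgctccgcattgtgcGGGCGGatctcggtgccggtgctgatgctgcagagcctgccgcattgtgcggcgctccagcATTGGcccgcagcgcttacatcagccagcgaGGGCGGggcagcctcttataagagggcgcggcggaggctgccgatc
Stmn3: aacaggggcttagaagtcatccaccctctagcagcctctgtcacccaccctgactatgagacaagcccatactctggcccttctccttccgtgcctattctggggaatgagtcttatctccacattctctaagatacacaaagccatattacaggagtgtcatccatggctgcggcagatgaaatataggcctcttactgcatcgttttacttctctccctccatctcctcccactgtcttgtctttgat
Dcx: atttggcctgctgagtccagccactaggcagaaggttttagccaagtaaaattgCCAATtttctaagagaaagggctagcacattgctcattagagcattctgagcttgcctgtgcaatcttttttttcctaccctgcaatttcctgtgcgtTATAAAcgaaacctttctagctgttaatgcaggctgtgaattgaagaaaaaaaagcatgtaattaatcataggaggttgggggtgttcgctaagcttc
Map2: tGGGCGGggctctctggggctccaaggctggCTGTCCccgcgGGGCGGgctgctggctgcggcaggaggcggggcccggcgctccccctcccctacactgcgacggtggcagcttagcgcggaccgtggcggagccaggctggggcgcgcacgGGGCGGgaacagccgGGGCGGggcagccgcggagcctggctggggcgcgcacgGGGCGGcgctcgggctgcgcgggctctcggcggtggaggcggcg

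The promoters were unlike each other in these windows. GC content was 68.0% in Tubb3 and 81.2% in Map2, against 48.8% in Stmn3 and 41.6% in Dcx, beside a median of 52.4% over 32851 promoter windows. Tubb3 held 2 GC boxes, at 138 and 46 bases before its start, and 1 CCAAT box on the minus strand at 77 bases, while Map2 held 5 GC boxes and 1 right RE1 arm at 219 bases. Dcx held a TATA box at 98 bases and a CCAAT box at 196 bases before its second start, and Stmn3 held none of the motifs. The window of the first Dcx start, not printed here, had a TATA box at 193 bases, no CCAAT box and 44.8% GC. Among all promoter windows 32.7% held a GC box, 33.9% a CCAAT box, 12.4% a TATA box and 18.7% a right RE1 arm. The MYC E-box CACGTG (6.02% of all windows) and the left RE1 arm, searched as TTCAGCACC (0.301%), occurred in none of these 4 windows.

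After CBL0137 alone, 0 of the 10 genes rose and 0 fell by limma, beside 4.99% of all 15497 tested genes that rose and 1.13% that fell. At an unadjusted p under 0.05, 2 rose (Gap43 and Mapt) and 0 fell, beside 24.5% of all tested genes in either direction. With array weights limma called 2, and the share of all tested genes under that setting is not given here. The median log2 change was -0.11 over the 10 genes and -0.01 over all tested genes. Mapt was called without CBL0137 replicate 1, with a log2 change of 1.14. Replicates are separate mice, so these p-values weigh a difference against variation from mouse to mouse, and an exact permutation test of 3 against 3 cannot reach a p under 0.1.

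After panobinostat 7 of the 10 genes fell and 1 (Mapt) rose, beside 16.9% of all tested genes that fell and 25.5% that rose. The median log2 change was -0.90 over the 10 genes and 0.10 over all tested genes. Panobinostat replicate 3, the library with muscle transcripts, was lower than replicate 1 in 10 of the 10 genes. Stmn3 was called in each of the 11 fits that left out 1 library, with log2 changes from -1.47 to -1.25. The count of 8 dropped to 2 without panobinostat replicate 3 (Stmn3 and Mapt), 4 without panobinostat replicate 1, 5 without vehicle replicate 1 and 3 without vehicle replicate 3. With 1 panobinostat library left, that library was assumed to vary like the other groups.

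After the combination 9 of the 10 genes fell and 0 rose, beside 30.1% of all tested genes that fell and 35.9% that rose. The median log2 change was -2.14 over the 10 genes and 0.08 over all tested genes, and the falls ran from 1.17 for Gap43 to 2.68 for Dcx. These 9 were called in all 11 fits that left out 1 library. Combination replicate 2 was the lowest of the combination libraries in 8 of the 10 genes. Without it the log2 changes of the 9 ran from -2.33 (Dcx) to -1.01 (Gap43), Stmn1 stood at 25.1% of the vehicle mean and Dcx at 18.0%.

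**Figure D4:**
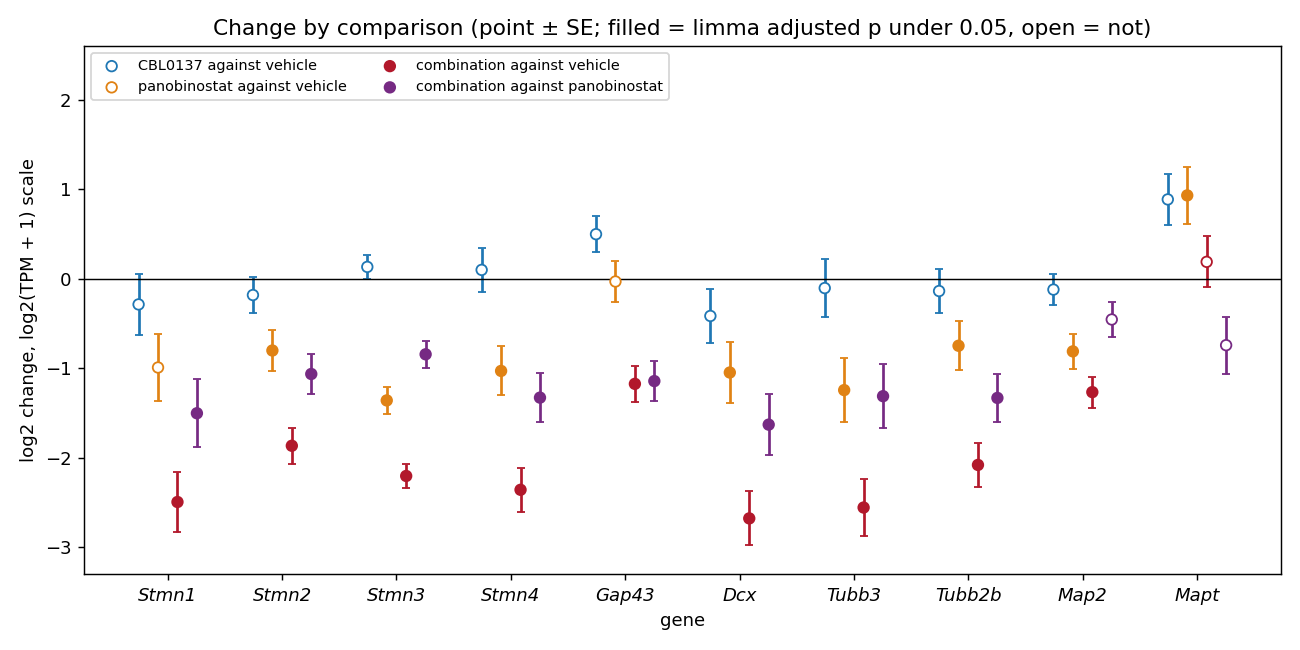
log2 change of each gene in 4 comparisons, as points with SE bars, filled where limma's adjusted p was under 0.05. Combination against vehicle is called in 9 genes, from -1.17 to -2.68, and CBL0137 against vehicle in none.

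Set against each single drug, the combination was lower as well. Against CBL0137, 9 of the 10 genes fell and 0 rose, beside 23.7% of all tested genes that fell and 33.2% that rose, with log2 changes from -1.15 for Map2 to -2.46 for Stmn4. Mapt was not called there, with a log2 difference of -0.70 (limma adjusted p = 0.0581). It was called without CBL0137 replicate 1 (-0.95) or without combination replicate 3 (-0.85). Mapt was also called with TMM factors (-0.81), quantile normalization (-1.10) and array weights (-0.88). Rescaling without small structural RNA and histone genes called it too (-0.84). Against panobinostat, 8 of the 10 genes fell and 0 rose, beside 4.30% of all tested genes that fell and 6.24% that rose, with log2 changes from -0.84 for Stmn3 to -1.63 for Dcx. Map2 and Mapt were not called there, with log2 differences of -0.46 and -0.74, but were called with quantile normalization (-0.62 and -0.90). This count of 8 rested on few libraries, being 0 without panobinostat replicate 1, 1 without panobinostat replicate 3 and 2 without combination replicate 1. These comparisons share libraries with those against vehicle.

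The interaction compares the change under the combination with what the 2 single-drug changes add up to on the log2 scale, and a value below 0 means lower than that sum. It passed limma's threshold in 0 of the 10 genes, beside 0% of all tested genes that rose and 0% that fell, and in 0 of the 10 under each alternative run. At an unadjusted p under 0.05 it was below 0 in 9 of the 10 genes, beside 10.5% of all tested genes in either direction. Its value ran from -1.64 ± 0.30 for Gap43 to -0.33 ± 0.26 for Map2, with a median of -1.21 over the 10 genes and -0.02 over all tested genes.

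Among themselves the genes formed closer and looser pairs. Likeness was measured as the root mean square difference in log2(TPM + 1) over the 11 libraries, after each gene was centred on its own mean. Stmn2 and Tubb2b (0.169) and Stmn1 and Tubb3 (0.172) were nearest each other, followed by Stmn3 and Stmn4 (0.228), with Dcx nearest Stmn1 (0.246). Gap43 was nearest Stmn2 (0.323) and Map2 was nearest Stmn2 (0.357). Mapt stood furthest off, 0.585 from Gap43, and 4060 of 11594 other genes (those averaging 5 TPM or more) were closer to it than that. Of these other genes, 1903 were closer to Map2 and 165 to Gap43 than their nearest member. For the remaining members this count ran from 0 (Tubb3) to 40 (Stmn2).

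By the same measure, the nearest gene outside the 10 was Cplx1, a regulator of synaptic vesicle fusion, for both Stmn1 (0.119) and Tubb3 (0.177). For Stmn3 it was Tagln3 (0.161), for Stmn4 Hrk (0.189), for Dcx Lin7a (0.186), for Tubb2b Ap3b2 (0.0911), a subunit of the neuronal AP-3 adaptor, and for Stmn2 9330182L06Rik (0.0889). Gap43 was nearest Lyrm9 (0.166), Map2 nearest the axonal adhesion molecule Cntn1 (0.106) and Mapt nearest the G protein subunit Gng4 (0.211). These are likenesses over 11 libraries that share the same treatments.

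The wider machinery was read from 11 lists of 170 genes, 165 of them tested. After CBL0137, 3 of the 165 rose and 0 fell, beside 4.99% of all tested genes that rose and 1.13% that fell. Panobinostat gave 20 rises and 40 falls, beside 25.5% and 16.9% of all tested genes. The combination gave 25 rises and 88 falls, beside 35.9% and 30.1% of all tested genes, with a median log2 change of -0.52 over the 165 genes and 0.08 over all tested genes. The lists were drawn up with earlier results of these data known, and their counts are descriptions.

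**Figure D5:**
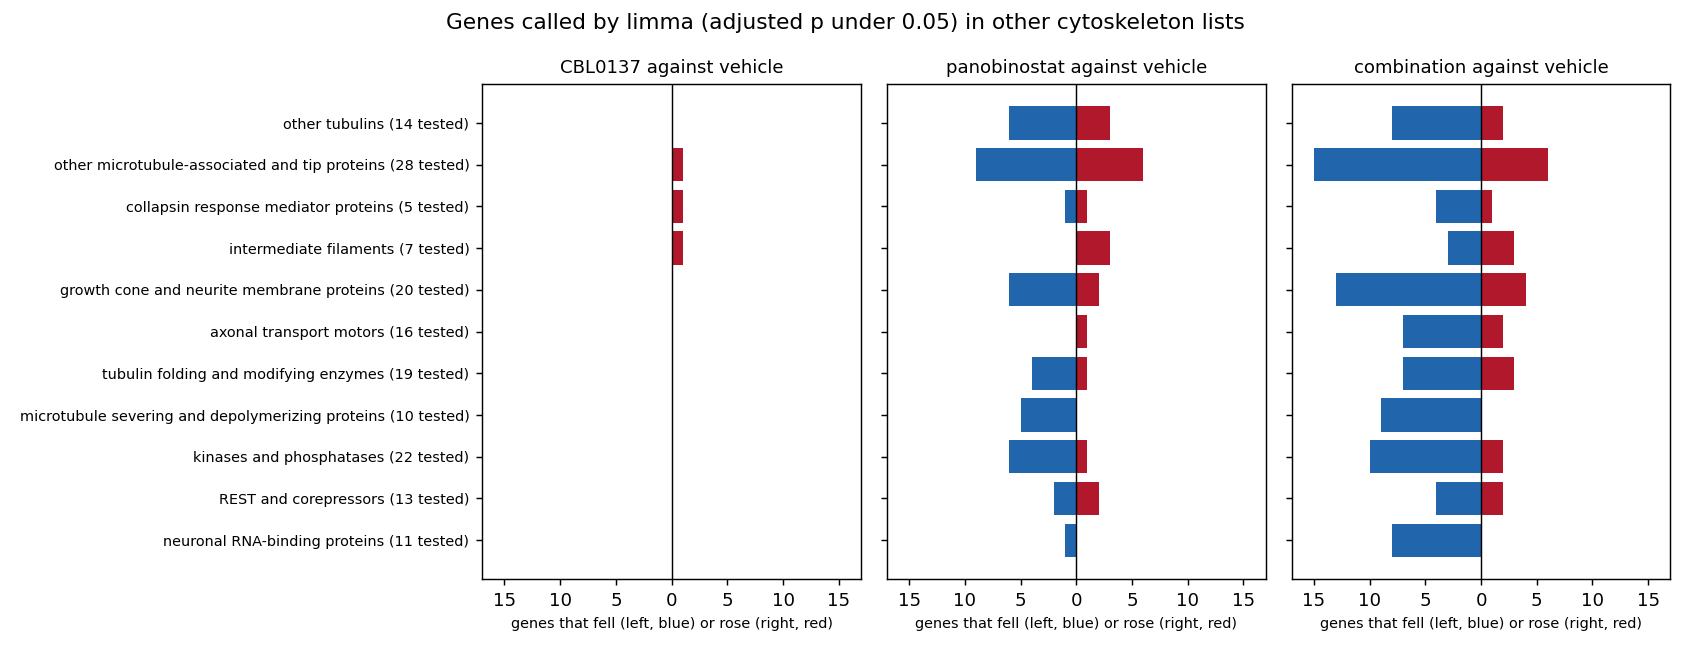
Number of tested genes of each cytoskeleton list that rose or fell by limma in each comparison with vehicle. Falls outnumber rises in 10 of the 11 lists after the combination, and intermediate filaments have 3 of each.

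Other tubulins moved in both directions. Of 14 tested, 6 fell and 3 rose after panobinostat, beside 16.9% of all tested genes that fell and 25.5% that rose. After the combination 8 fell and 2 rose, beside 30.1% of all tested genes that fell and 35.9% that rose. Tuba1a, the main alpha-tubulin of young neurons, went from 2333 ± 50.7 TPM in vehicle to 677 ± 115 TPM after the combination (SD, n = 3 each), a fall of 1.80 ± 0.15 on the log2 scale. Tubb5, a beta-tubulin of most tissues, went from 1426 ± 43.6 to 468 ± 121 TPM, while Tubb6 rose from 33.5 ± 4.36 to 98.0 ± 17.9 TPM. Near-identical alpha-tubulin copies (Tuba1a, Tuba1b and Tuba1c) can share reads, so their separate levels are uncertain. Tuba4a and Tuba8 were called up after panobinostat, with 97.1 and 24.9 TPM in replicate 3, the library with muscle transcripts, against 20.1 and 1.68 TPM in replicate 1.

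Of 28 other microtubule-associated and tip proteins, 15 fell and 6 rose after the combination, and 9 fell and 6 rose after panobinostat. Among all tested genes 30.1% fell and 35.9% rose after the combination, and 16.9% fell and 25.5% rose after panobinostat. Ckap5, a microtubule polymerase, went from 147 ± 18.8 to 59.6 ± 7.44 TPM after the combination. Tppp3, a tubulin polymerization-promoting protein, was 1 of the 3 genes that rose after CBL0137, from 24.1 ± 2.35 to 58.7 ± 16.9 TPM. Of 10 severing and depolymerizing proteins, 9 fell after the combination and 0 rose, among them the mitotic depolymerase Kif2c, from 95.8 ± 3.08 to 19.3 ± 9.35 TPM.

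Of 7 intermediate filament genes 3 fell and 3 rose after the combination, beside 30.1% of all tested genes that fell and 35.9% that rose. Nefl, the neurofilament light chain, fell by 2.35 ± 0.41 on the log2 scale after the combination, from 971 ± 84.3 to 221 ± 127 TPM, and Nefh and Ina fell as well. Vim, the filament of mesenchymal cells and of many immature cells, rose after every treatment, from 133 ± 28.0 TPM in vehicle to 461 ± 217 TPM after CBL0137, 1023 ± 274 after panobinostat (n = 2) and 1766 ± 201 after the combination. Prph, the filament of peripheral neurons, rose from 2.99 ± 1.72 to 21.4 ± 6.63 TPM and Nes, a filament of progenitor cells, from 3.94 ± 1.65 to 22.5 ± 16.1 TPM after the combination. The macrophage and fibroblast sums given above were highest in these same libraries, and 11 endothelial markers ran from 60.6 to 91.3 TPM in vehicle and 621 to 1204 TPM after the combination. Their part in the rise of Vim was not tested.

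Growth cone, guidance, motor and tubulin-modifying genes are given for the combination, beside 30.1% of all tested genes that fell and 35.9% that rose. Of 20 growth cone and neurite membrane genes 13 fell and 4 rose, with Fez1, an axonal transport adaptor, falling by 2.20 ± 0.23 on the log2 scale from 112 ± 3.31 TPM in vehicle and Pfn2, the neuronal profilin, from 205 ± 8.81 to 63.4 ± 13.6 TPM. Of the 5 collapsin response mediator proteins, which transmit guidance signals to microtubules, 4 fell and Dpysl3 rose, from 26.3 ± 4.15 to 67.9 ± 17.1 TPM. Of 16 axonal motor genes 7 fell and 2 rose, with Kif5c, a neuronal kinesin heavy chain, going from 208 ± 35.1 to 68.3 ± 26.1 TPM. Of 19 tubulin folding and modifying genes 7 fell and 3 rose, among them Vash2, a tubulin detyrosinase subunit, from 37.2 ± 3.23 to 9.15 ± 4.31 TPM. The shares of motor and tubulin-modifying genes that fell were closer to the background than those of the growth cone and guidance genes.

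Regulators of these proteins and genes were read last. Of 22 kinases and phosphatases that act on stathmins, doublecortin or tau, 10 fell and 2 rose after the combination, with the mitotic kinase Cdk1 falling by 2.13 ± 0.35 on the log2 scale. Rest, the repressor of neuronal genes, rose from 1.41 ± 0.227 TPM in vehicle to 8.98 ± 0.233 TPM after panobinostat (n = 2) and 16.9 ± 2.07 TPM after the combination, log2 changes of 2.05 ± 0.33 and 2.89 ± 0.29. The macrophage and fibroblast sums given above were also higher in the panobinostat and combination libraries than in vehicle. Their part in the rise of Rest was not tested. Rcor2, a corepressor of REST, went from 84.2 ± 9.35 to 21.2 ± 9.40 TPM after the combination. Of the 13 genes of that list 2 rose and 4 fell, beside 35.9% of all tested genes that rose and 30.1% that fell, so the share that fell was near the background. Of 11 neuronal RNA-binding proteins 8 fell and 0 rose after the combination, with Elavl3, which binds neuronal messenger RNAs, going from 70.5 ± 13.4 to 20.2 ± 9.79 TPM.

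Set against the summed noradrenergic markers, the 10 genes stood lower as well. Their summed TPM was 2.26 to 2.34 times that of the 13 noradrenergic markers in vehicle, 1.30 to 1.83 times after CBL0137, 1.34 to 1.41 times after panobinostat, and 0.917, 0.263 and 0.753 times in combination replicates 1, 2 and 3. The CBL0137 and panobinostat ranges overlapped on this scale, and the noradrenergic sum was higher in all 3 CBL0137 libraries than in vehicle. On it, the sum of the 10 genes after the combination stayed below every other group. Single genes differed. Mapt stood at 0.00961 to 0.0127 times the marker sum after panobinostat, above the 0.00381 to 0.00580 times in vehicle. After CBL0137 and after the combination Mapt overlapped vehicle, and Gap43 overlapped vehicle after either single drug. A fit on TPM divided by this marker sum, added after seeing the data, called 9 of the 10 genes for the combination against vehicle. It called 2 for panobinostat against vehicle and 0 for the combination against panobinostat. The median log2 change of all tested genes was 0.25 (combination) and 0.28 (panobinostat) against vehicle in that fit. The share of all tested genes it called is not given here, so these counts lack a background. The marker sum of combination replicate 2 was the highest of its group, in the library with adrenal transcripts. Single markers in this sum went both ways after the combination, so the ratio does not measure tumour cell content.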

How the data were processed

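RNA was taken from flash-frozen tumours and sequenced as stranded, ribosome-depleted total RNA, per the labels' protocols. The authors deposited TPM for 24411 genes, made with STAR, SAMtools and RSEM on mm10 per the submitters' processing notes, and versions are not given in the sources used here. Depth is unknown because TPM carry no counts, so no counting interval is given. Libraries had 12856 to 14747 genes at 1 TPM or higher. The number of value columns left unused was 0. Panobinostat replicate 2 was not analysed here.

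Genes reaching 1 TPM in 2 or more libraries (15497 kept, 8914 left out) were tested on log2(TPM + 1) with limma 3.58.1 in R 4.3.3 (lmFit, contrasts.fit, eBayes with trend). The 4 group means were fitted over all 11 libraries with 7 residual degrees of freedom, two-sided, with Benjamini-Hochberg adjustment over all tested genes and a threshold of 0.05. Fold changes on this scale understate those of low genes, Mapt among them. The fit was tested on simulated data with known answers. The groups share replicate numbers, but these did not pair the samples. Promoters came from RefSeq (GRCm38.p6), by symbol, and the sequence tables and figures were made in Python 3.11.15 (numpy 2.4.6, matplotlib 3.10.9).

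The members and lists were chosen with earlier results of these data known. Named genes are the 10 members, up to 3 called genes with the furthest change each way per list and comparison with vehicle, and the nearest genes by likeness. From these the text gives a part. Map7d3 and Svbp were not found by symbol in the table, and Tubb1, Map6d1 and Kif2b did not pass the filter. As alternatives, the pseudocount was set to 0.1 or 5 and the filter was dropped or raised to 5 TPM. Libraries were rescaled with TMM factors (trimmed mean of M-values, recomputed in R on the TPM), by quantiles, or without 1375 small structural RNA and histone genes. The fit was repeated with a replicate block, with array weights, without the trend, on the compared groups alone and with single libraries omitted.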

Additional observations from a re-analysis of the deposited data

Results flagged for a closer look

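In Gap43 and Mapt, the tumours that had CBL0137 lay on opposite sides of their comparison group depending on whether panobinostat was also given. All 3 CBL0137 libraries lay above the vehicle mean, whereas all 3 combination libraries lay below the panobinostat mean. The interaction was -1.64 ± 0.30 (log2, SE) in Gap43, with a limma adjusted p of 0.331, and -1.63 ± 0.43 in Mapt, with an adjusted p of 0.347. Neither passed the threshold after adjustment over all tested genes. The underlying difference of CBL0137 from vehicle did not pass either (adjusted p of 0.163 in Gap43 and 0.0937 in Mapt), nor did that of the combination from panobinostat in Mapt (0.133). Scaled to the noradrenergic markers, the CBL0137 difference in Gap43 was -0.0202. Gap43 had a mean of 131 TPM in vehicle, 184 after CBL0137, 128 after panobinostat and 58.0 after the combination, and Mapt had 6.67, 13.3, 13.7 and 7.74 TPM.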

How the results depend on the processing

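Over the single genes, 233 of 240 values kept direction and call for CBL0137 against vehicle, 186 of 240 for panobinostat, 238 of 240 for the combination, 233 of 240 and 170 of 240 for the combination against CBL0137 and against panobinostat, and 229 of 230 for the interaction. With 1 library left out, the genes called numbered 0 to 1, 2 to 9, 9 to 9, 9 to 10, 0 to 8 and 0 to 0 in that order. Array weights gave 2 for CBL0137 against vehicle. The last 2 alternatives were chosen after seeing the data. Without both libraries that carry adrenal cortex or muscle transcripts the count was 5 for panobinostat against vehicle and 0 for the combination against panobinostat. Dividing TPM by the summed noradrenergic markers gave 2 and 0 there, and moved the median of all tested genes to -0.46 (CBL0137), 0.28 (panobinostat), 0.25 (combination) and 0.71 (combination against CBL0137). Fitting only the groups compared gave 0 for the combination against panobinostat. A replicate block gave 0 there as well, and 0, 7, 9, 9 and 0 in the other comparisons, with Stmn1 after panobinostat called at -1.14. The numbers are no more than labels, since same-numbered libraries had correlations of -0.26 to 0.19 in their deviations and 1 of 11 correlated best with its own number. Quantile normalization moved the median of all tested genes to -0.18 (panobinostat) and -0.26 (combination). Signs turned under these settings. With noradrenergic scaling, CBL0137 against vehicle gave -0.39 for Stmn3, -0.42 for Stmn4 and -0.0202 for Gap43, and the interaction of Map2 was 0.16. Tubb3 gave 0.027 for CBL0137 against vehicle without CBL0137 replicate 3. Gap43 after panobinostat gave 0.086 with quantile normalization, 0.18 with noradrenergic scaling, 0.13 without both marked libraries, and -0.19 to 0.13 with 1 library left out, above 0 without vehicle replicate 1, vehicle replicate 3 (0.0012) or panobinostat replicate 3. Mapt after the combination gave -0.44 with quantile normalization and -0.0221 with array weights. The cause of these changes was not tested.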
